A study of Caenorhabditis elegans with 12 samples.

Results

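The col genes of Caenorhabditis elegans are a large family of genes, most of which code for collagens of the cuticle. They were taken as every gene whose WBcel235 name in the Ensembl annotation is col- followed by a number, and 156 such genes, all protein coding, stood among the 46926 genes of the count table. Of these, 138 had at least 10 counts in 4 or more of the 12 libraries and are described here. The 18 others were too low to be kept, and 1 of them, col-171, had no count in any library. The kept genes nearest to the limit were col-35 and col-50, with 10 or more counts in exactly 4 libraries, and 7 genes reached that count in 3 libraries only (col-44, col-72, col-86, col-121, col-132, col-164 and col-183). Of the 138 genes, 106 had 10 or more counts in all 12 libraries.

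Poly-A RNA of whole worms was sequenced from 3 strains with 4 libraries each. The TDP-43 strain carries Psnb-1::TDP-43, a transgene under the promoter of the synaptobrevin gene snb-1, with the marker Pmyo-2::dsRED. The TDP-43ΔNLS strain carries Psnb-1::TDP-43(K82A/R83A/K84A), in which residues of the nuclear localization signal are replaced, with the marker Pmyo-3::dsRED. The wild type strain is N2 and carries neither transgene nor marker, so the transgene and its red fluorescent marker cannot be told apart in a comparison with it. The transgenes are driven in neurons, whereas the col genes are transcribed mainly in the hypodermis, and the RNA is a mixture of all tissues. All animals were grown at 20 °C from purified eggs and are labelled as larval stage 4. Total counts ranged from 20671982 to 26910097 per library. Nothing in the labels says that the libraries of a strain are separate cultures, and a p-value here covers no more than the spread among them, which may be technical. In bulk RNA, fewer cells of a type and less RNA per cell cannot be told apart.

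The cuticle of the worm is a collagen exoskeleton that the hypodermis builds anew before each molt. Its collagens are short proteins with stretches of the Gly-X-Y triplet that form a triple helix. Prolines in the chains are hydroxylated in the endoplasmic reticulum by enzymes that include DPY-18 and PHY-2 with the protein disulfide isomerase PDI-2, the chains are cut by proteases such as BLI-4 and DPY-31, and they are cross-linked outside the cell by the oxidase BLI-3 and its partners. Individual collagen genes are switched on in particular molts: col-17 is known as a larval gene, col-19 and col-7 as genes of the adult cuticle that depend on the transcription factor LIN-29, and col-2 as a gene of the dauer larva. The gene col-99 bears the same kind of name but codes for a transmembrane collagen that is not part of the cuticle.

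The libraries did not all look like the stage on their labels. A list of 23 oocyte and eggshell genes averaged 4.2 log2 CPM (CPM is the count of a gene relative to the scaled library total) in TDP-43 replicate 4, 2.72 in TDP-43ΔNLS replicate 3, 4.54 in TDP-43ΔNLS replicate 4 and 3.14 in wild type replicate 4, against 8.30 to 9.54 in the 8 other libraries. These 4 libraries, all under 6 on this scale, are called larva-like below and the 8 others adult-like, and the yolk protein genes divided them in the same way. The yolk gene vit-2 stood at 3.16 to 83.4 CPM in the larva-like libraries and at 1555 to 3978 CPM in the adult-like libraries. The molting gene mlt-10 stood at 65.9 to 180 CPM in the larva-like libraries and at 7.95 to 63.1 CPM in the adult-like libraries, lowest in wild type replicate 3 and highest in wild type replicate 1. The sets were drawn from expression and are not groups of the study, so col gene levels in them are described with no test. They cut across the strains: TDP-43 and wild type had 1 larva-like library each and TDP-43ΔNLS had 2.

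Of the 138 col genes, 43 were higher in every larva-like library than in any adult-like library, 24 were lower in every larva-like library than in any adult-like library, and 71 overlapped between the sets. The first class made up 31.2% of the col genes, against 22.3% of the 16637 genes tested, and the second 17.4%, against 24.6%. In either direction 46.9% of all genes tested did not overlap, so the share of col genes that divided the libraries was near the background. What stood apart was the size of the differences. In the class higher in the adult-like libraries the median difference was -5.42 (larva-like minus adult-like, in log2(CPM + 0.5) of the medians), against -1.68 for all genes of that kind. In the class higher in the larva-like libraries it was 1.95, against 1.26 for all genes of that kind. Over all 138 col genes the median difference was 0.63, against 0.14 over all genes tested.

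**Figure D1:**
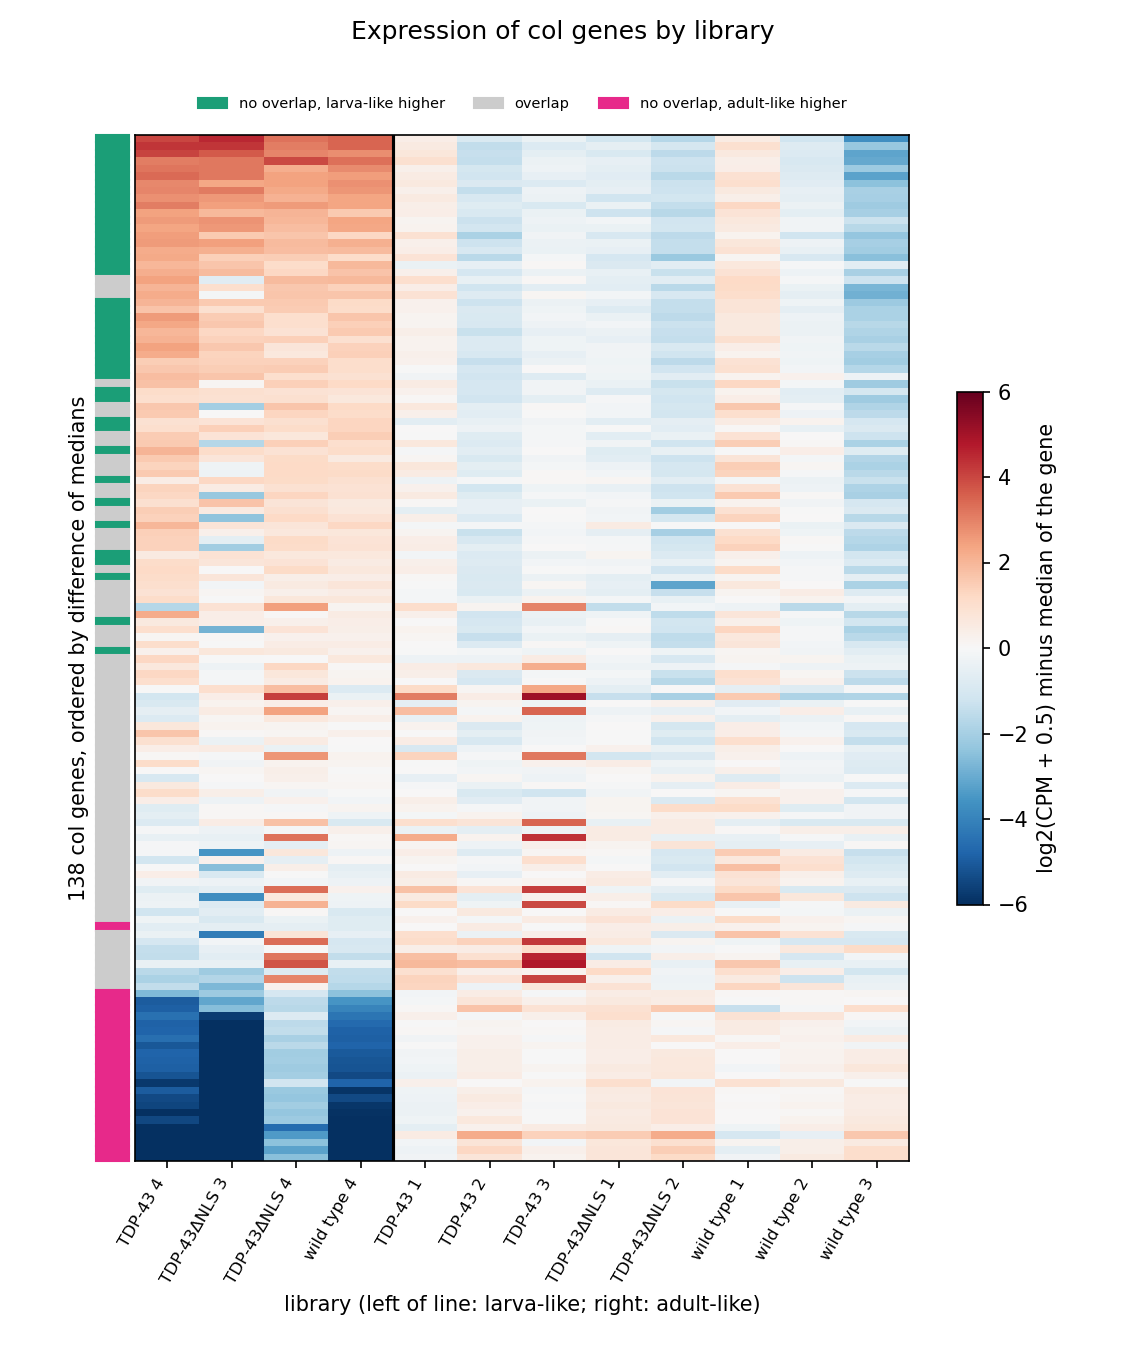
Level of each of the 138 col genes (rows) in each library (columns) as log2(CPM + 0.5) minus the gene's median over the 12 libraries, with colours limited to 6 either way. The strip at the left marks the 43 genes higher in every larva-like library, the 71 that overlap and the 24 higher in every adult-like library; the last block is deep blue in TDP-43 replicate 4, TDP-43ΔNLS replicate 3 and wild type replicate 4 and paler in TDP-43ΔNLS replicate 4.

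The genes higher in the adult-like libraries included the known adult collagens. The adult cuticle gene col-19 (X:421707-422691) had 43.6 CPM in TDP-43 replicate 4, 1.24 CPM in TDP-43ΔNLS replicate 3, 481 CPM in TDP-43ΔNLS replicate 4 and 34.9 CPM in wild type replicate 4. In the adult-like libraries col-19 ran from 1569 to 3314 CPM with a median of 2493. Even the highest larva-like library lay far below the lowest adult-like one. The other known adult gene, col-7 on chromosome I, had 1.35 CPM in TDP-43 replicate 4, 0.44 CPM in TDP-43ΔNLS replicate 3, 45.2 CPM in TDP-43ΔNLS replicate 4 and 3.12 CPM in wild type replicate 4, against 90.3 to 204 CPM (median 121) in the adult-like libraries. Per kilobase of exon the adult-like median was 77.3 CPM for col-7 and 2675 CPM for col-19, so col-7 was the weaker gene, and both were lowest in TDP-43ΔNLS replicate 3.

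The widest difference of any col gene belonged to col-8 (III:7019583-7020600). It had 0.13 CPM in TDP-43 replicate 4, 0.36 CPM in TDP-43ΔNLS replicate 3, 177 CPM in TDP-43ΔNLS replicate 4 and 1.58 CPM in wild type replicate 4, against 872 to 2264 CPM (median 1576) in the adult-like libraries. For col-143 (V:6835635-6836704) the levels were 0.34, 0, 50.9 and 0.65 CPM in the larva-like libraries in the same order, against 316 to 1289 CPM (median 691) in the adult-like libraries. Both genes were thus almost silent in 3 libraries and partly on in TDP-43ΔNLS replicate 4. By the same measure col-119, col-95, col-135, col-20 and col-179 came next, with differences of medians of -8.24, -7.60, -6.84, -6.23 and -6.13. Over the 24 genes the fold between medians (adult-like over larva-like) ran from 1.77 for col-93 to 1624 for col-8, with a median of 43.1, and it passed 10 for 22 of them.

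The 4 larva-like libraries were not alike in these genes. TDP-43ΔNLS replicate 4 was the highest of the 4 for 24 of 24 genes, and its median level was 19.2% of the adult-like median. The median was 2.17% in TDP-43 replicate 4, 0.18% in TDP-43ΔNLS replicate 3 and 2.25% in wild type replicate 4. TDP-43ΔNLS replicate 3 was the lowest of the 4 for 18 of 24 genes. Among the adult-like libraries the same median ran only from 70.1% in TDP-43 replicate 1 to 130% in TDP-43ΔNLS replicate 2.

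The genes higher in the larva-like libraries included the known larval collagen. The gene col-17 (II:4866436-4867576) had 1580 CPM in TDP-43 replicate 4, 1356 CPM in TDP-43ΔNLS replicate 3, 797 CPM in TDP-43ΔNLS replicate 4 and 849 CPM in wild type replicate 4, against 15.6 to 287 CPM (median 89.9) in the adult-like libraries. It was still well detected in most adult-like libraries, unlike col-8 and col-143 in the larva-like ones. The gene col-41 (X:15175032-15176481), which had the widest difference of this class, had 673 CPM in TDP-43 replicate 4, 965 CPM in TDP-43ΔNLS replicate 3, 402 CPM in TDP-43ΔNLS replicate 4 and 469 CPM in wild type replicate 4, against 2.77 to 58.6 CPM (median 20.4) in the adult-like libraries. The levels of col-10 (V:9164292-9165307) were 2004, 2273, 1277 and 1634 CPM in the larva-like libraries in the same order, against 67.0 to 392 CPM (median 184) in the adult-like libraries.

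By difference of medians col-54 (4.69), col-90 (4.16), col-176 (3.94), col-169 (3.71) and col-166 (3.24) completed the 8 widest of this class, among genes with a median of at least 50 CPM in the larva-like libraries. Over the 43 genes the fold between medians (larva-like over adult-like) ran from 1.54 for col-94 to 29.7 for col-54, with a median of 4.67, and it passed 10 for 8 of them. The class thus moved over a narrower range than the adult-like one. The transmembrane collagen gene col-99 (IV:137974-147919), no cuticle collagen, was also in this class, at 52.7 CPM in TDP-43 replicate 4, 41.2 CPM in TDP-43ΔNLS replicate 3, 27.8 CPM in TDP-43ΔNLS replicate 4 and 50.7 CPM in wild type replicate 4, against 6.86 to 20.2 CPM (median 9.29) in the adult-like libraries. Its exons overlap those of daf-1 on the other strand, and the strand setting of the counting is not given in the sources used here. The exons of col-90 likewise overlap those of let-754 on the other strand, which had 53815 counts in all against 70804 for col-90.

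The adult-like libraries also varied in the larval genes. Wild type replicate 1 had a median of 44.7% of the larva-like median and wild type replicate 3 a median of 7.90%, with the 6 other adult-like libraries between them. These are the same libraries in which mlt-10 was highest and lowest of the adult-like set.

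**Figure D2:**
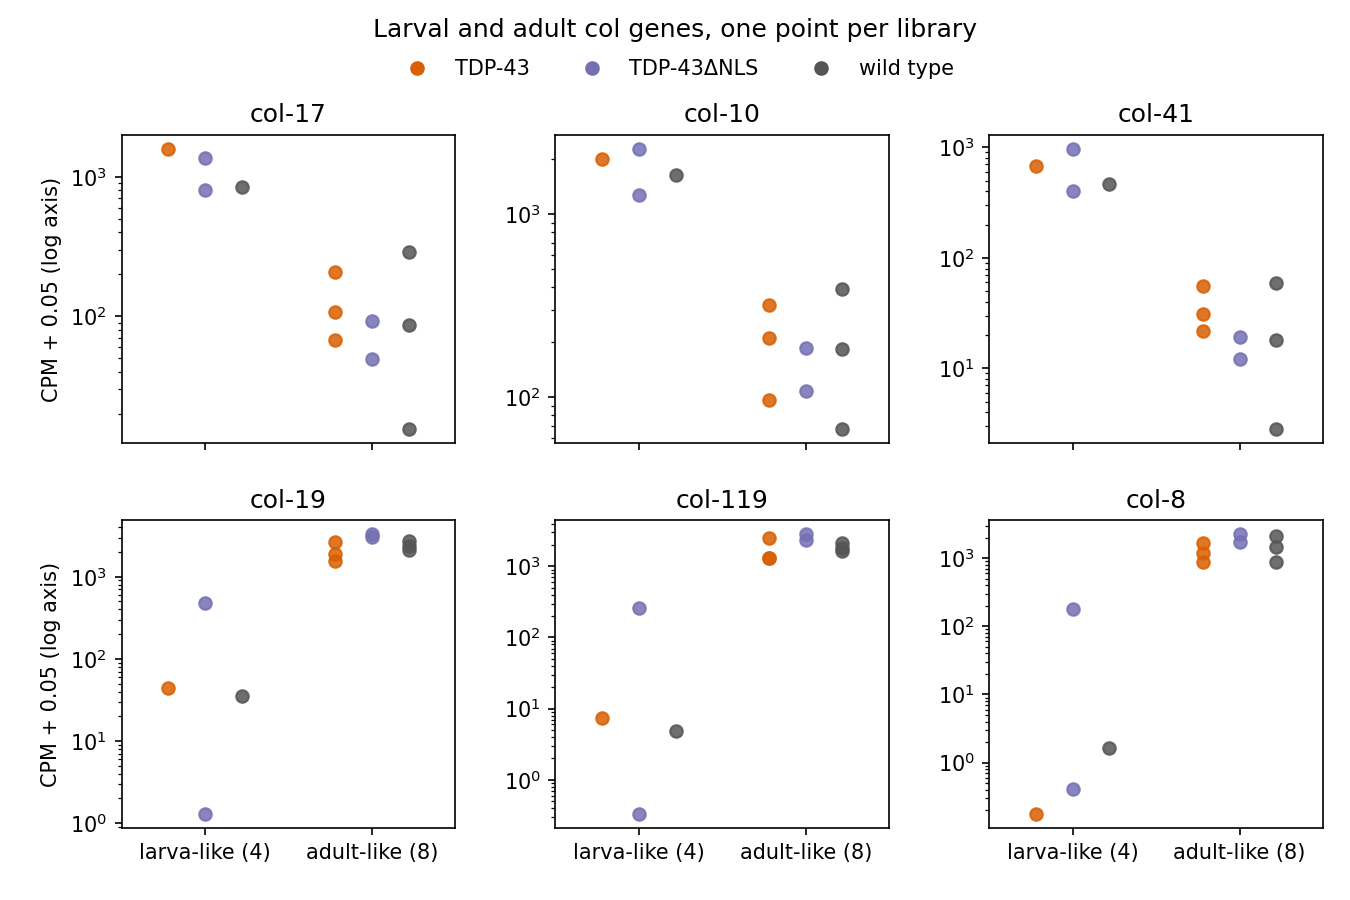
CPM (plus 0.05, log axis) of 3 genes higher in the larva-like libraries (col-17, col-10, col-41) and 3 higher in the adult-like libraries (col-19, col-119, col-8), with 1 point per library coloured by strain, the 4 larva-like libraries at the left and the 8 adult-like at the right of each panel. In the lower row the highest larva-like point is TDP-43ΔNLS replicate 4, at 481 CPM for col-19 and 177 CPM for col-8.

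Different col genes led the 2 sets in level per length. In the larva-like libraries the median CPM per kilobase of exon was highest for col-125 (3024), col-42 (1993), col-10 (1883), col-166 (1850) and col-73 (1786). In the adult-like libraries it was highest for col-122 (4590), col-124 (4287), col-140 (3979), col-106 (3304) and col-181 (2972). The 10 leading genes of the larva-like libraries and the 10 of the adult-like libraries had 0 genes in common. All 10 of the adult-like leaders were genes without overlap between the sets, whereas 5 of the 10 larva-like leaders overlapped. Of all 138 col genes, 71 overlapped. The ranking and the classes rest on the same levels, so these counts are partly built in and are only a description.

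The overlapping genes col-42, col-103, col-98 and col-160 were abundant in both sets. For col-42 (V:18638484-18639591) the level was 1024 CPM in TDP-43 replicate 4, 2058 CPM in TDP-43ΔNLS replicate 3, 2472 CPM in TDP-43ΔNLS replicate 4 and 2139 CPM in wild type replicate 4, against 1173 to 2303 CPM (median 1810) in the adult-like libraries. The gene col-160 stayed between 1114 and 1759 CPM in the larva-like libraries and between 1363 and 2048 CPM in the adult-like libraries. Its exons overlap those of col-159 on the same strand, so reads of the pair may have been counted for either gene. The ranges of the sets overlapped for each of these genes.

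Together the 138 genes took 4.17% to 5.41% of all counts in the larva-like libraries (median 4.57%) and 5.61% to 7.73% in the adult-like libraries (median 6.38%). The ranges did not meet. By strain the share was 5.75% ± 0.63 in TDP-43, 6.0% ± 1.55 in TDP-43ΔNLS and 6.02% ± 1.42 in wild type (SD, n = 4 each), so strain means lay well within the spread between libraries. The 24 genes of the adult-like class held 0.18% to 1.11% of counts in the larva-like libraries and 3.41% to 5.53% in the adult-like libraries. The 43 genes of the larva-like class held 1.79% to 2.51% and 0.19% to 0.91% in the same order. The col gene with the most counts was col-124 in all 8 adult-like libraries, col-125 in TDP-43 replicate 4, TDP-43ΔNLS replicate 3 and wild type replicate 4, and col-42 in TDP-43ΔNLS replicate 4.

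**Figure D3:**
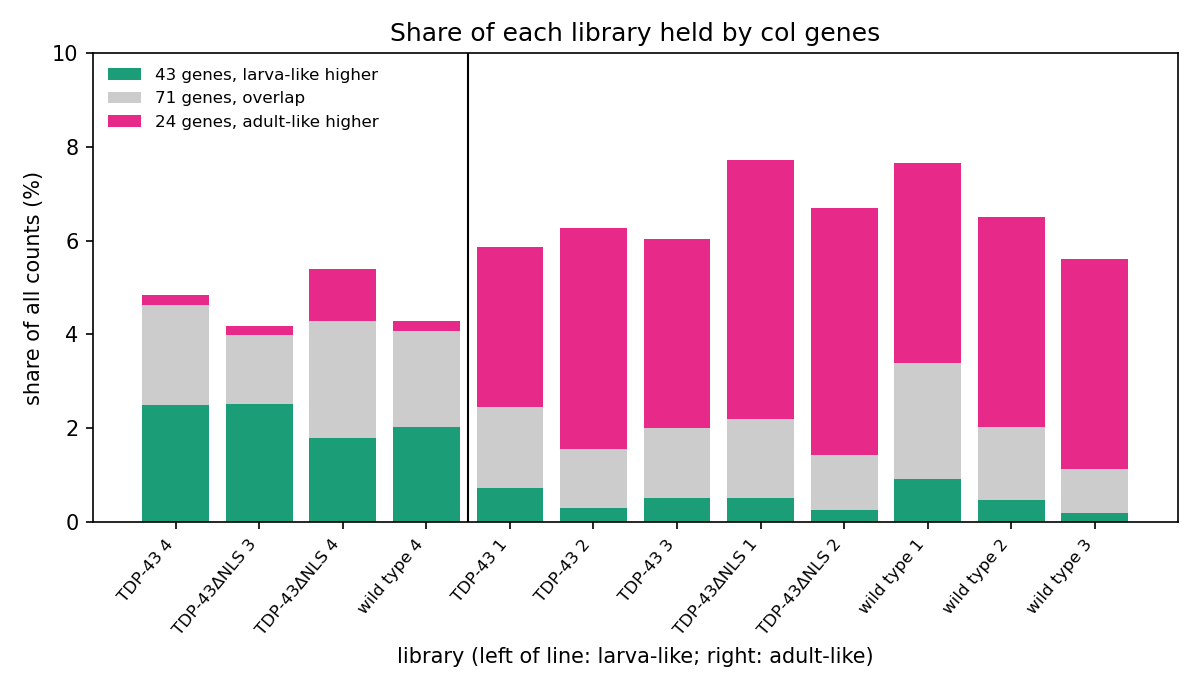
Share of all counts of a library (in %) held by the col genes, stacked by the 3 classes of genes, with the 4 larva-like libraries left of the line and the 8 adult-like right of it. The larva-like bars reach 4.17% to 5.41% and the adult-like bars 5.61% to 7.73%; the adult-like class makes up most of each adult-like bar.

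The classes were spread over the genome. The kept genes lie on chromosome IV (37), V (29), II (21), X (20), I (19) and III (12). Of the 20 on X, 11 were of the larva-like class, 5 of the adult-like class and 4 overlapped. On chromosome I, 12 of the 19 overlapped. Of all genes tested, over all chromosomes, 22.3% were higher in every larva-like library and 24.6% in every adult-like library. These shares were not computed for single chromosomes, so the counts do not show a pattern particular to col genes. Exon length did not separate the classes: its median was 991 bases in the larva-like class, 1010.5 in the adult-like class and 1052 among the overlapping genes.

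Col genes also lie beside each other. There were 26 pairs of neighbouring kept genes within 5000 bases, and 14 of them (53.8%) were of the same class, against 38.8% of all possible pairs of kept genes. Among the 14 are col-46 with col-47 and col-159 with col-160, whose exons overlap, so reads of a pair may have been counted for either gene. Pairs within a run of neighbours share genes and are not independent. A run on chromosome X from col-167 to col-170 (X:6323488-6332611), all on the forward strand, held 4 genes of the larva-like class. Their medians in the larva-like libraries were 828, 157, 687 and 149 CPM for col-167, col-168, col-169 and col-170, against 248, 45.3, 52.0 and 41.8 CPM in the adult-like libraries. The pair col-178 and col-179, also on X, lay in the adult-like class, at medians of 37.3 and 4.87 CPM in the larva-like libraries and 1794 and 377 CPM in the adult-like libraries.

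Other neighbours went opposite ways. The larval gene col-17 and the adult-like gene col-20 are 2093 bases apart on the reverse strand of chromosome II, and col-20 had a median of 38.3 CPM in the larva-like libraries and 2831 CPM in the adult-like libraries, against 1102 and 89.9 CPM for col-17. The pairs col-39 and col-80, and col-93 and col-94, likewise held 1 gene of each class. In these 3 of the 26 pairs the closeness of the genes did not go with a shared pattern.

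A set of 12 weak genes did not follow the larva-like and adult-like sets. It was chosen after the values were seen, as the col genes highest in TDP-43 replicate 3 with at least 10 CPM there, and it is described with no test. It holds the dauer gene col-2 and col-36, col-37, col-40, col-43, col-50, col-51, col-84, col-85, col-102, col-123 and col-158. The summed level was 338 CPM in TDP-43 replicate 3 and 180 CPM in TDP-43ΔNLS replicate 4, then 67.6 CPM in TDP-43 replicate 1 and 8.06 to 27.0 CPM in the 9 other libraries, the 4 wild type libraries among them. TDP-43ΔNLS replicate 4 came next after TDP-43 replicate 3 for 12 of 12 genes. TDP-43 replicate 3 is adult-like and TDP-43ΔNLS replicate 4 larva-like. The exons of col-123 overlap those of catp-6 on the other strand, which had 33930 counts in all against 666 for col-123.

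Within this set col-2 (IV:10084439-10085451) had 4.30, 2.24, 32.8 and 0 CPM in TDP-43 replicates 1 to 4, 0.12, 1.27, 0.40 and 12.3 CPM in TDP-43ΔNLS replicates 1 to 4, and 1.08, 0.20, 0.73 and 0 CPM in wild type replicates 1 to 4. For col-40 (II:1104942-1106964) the levels were 4.10, 2.73, 30.5 and 0 CPM in TDP-43, 1.80, 0.98, 0.04 and 13.8 CPM in TDP-43ΔNLS, and 2.2, 0.28, 0.84 and 0.14 CPM in wild type. Both genes were highest in 1 library of each transgenic strain. TDP-43 replicates 1 and 2 were also above every wild type library for both genes, while TDP-43 replicate 4 was at 0.

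A second set, also chosen after the values were seen, held 10 overlapping genes with a median of at least 10 CPM that were lowest in TDP-43ΔNLS replicate 3 (col-49, col-60, col-63, col-71, col-88, col-120, col-133, col-137, col-138 and col-175). Their summed level was 629 CPM in that library and 993 CPM in wild type replicate 3, with 1297 to 6306 CPM in the 10 others. For col-88 (III:41063-41971) it was 9.89 CPM in TDP-43ΔNLS replicate 3 and 101 to 625 CPM in the 11 others. Wild type replicate 3 was the next lowest for 9 of the 10 genes. Low levels in these 2 libraries were common among all 71 overlapping genes. Wild type replicate 3 was the lowest adult-like library for 35 of the 71. TDP-43ΔNLS replicate 3 was the lowest larva-like library for 44 of the 71. The low library of this set is larva-like and the next is adult-like.

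**Figure D4:**
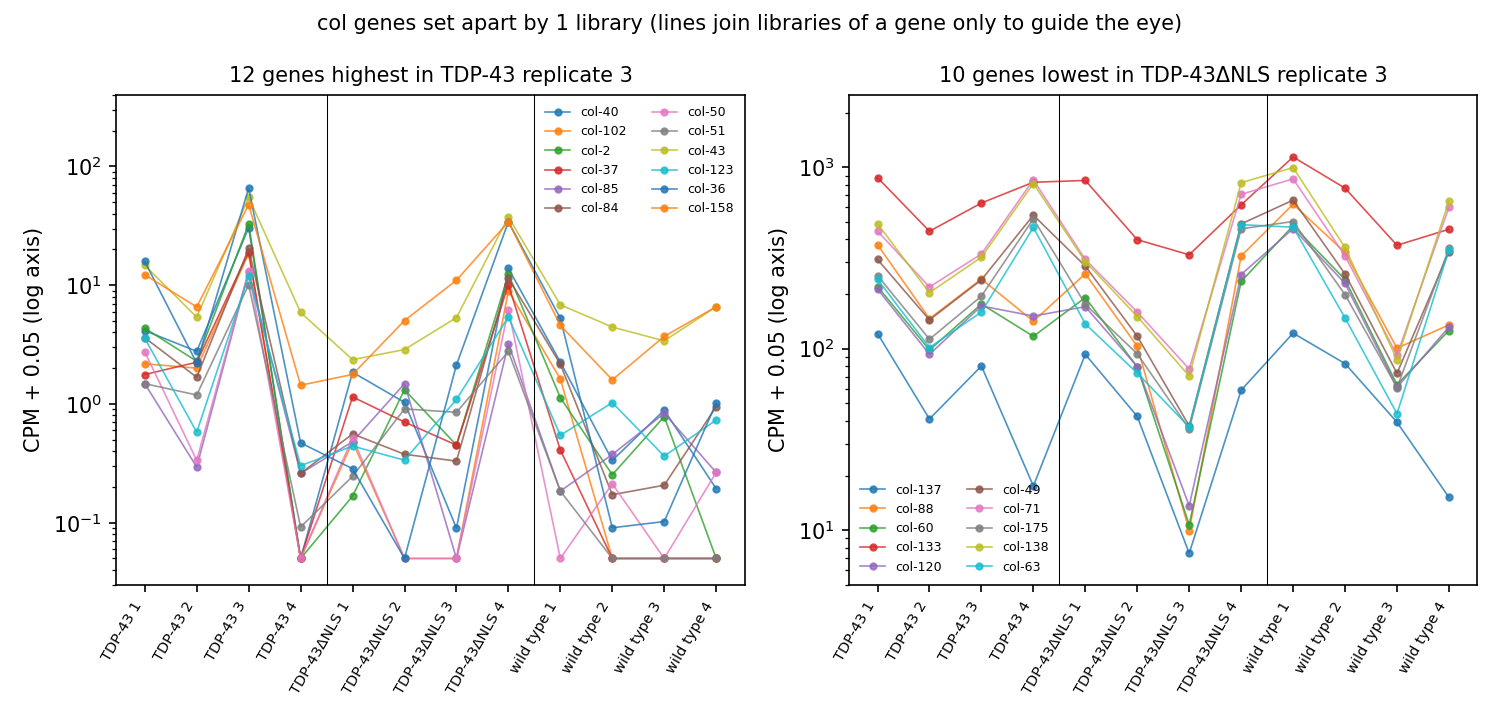
CPM (plus 0.05, log axis) of each gene of both sets in each library, with TDP-43, TDP-43ΔNLS and wild type from left to right. The 12 genes at the left peak in TDP-43 replicate 3 and TDP-43ΔNLS replicate 4, and the 10 genes at the right have their lowest values in TDP-43ΔNLS replicate 3.

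Between the strains, no col gene passed an adjusted p of 0.05 in any of the 3 comparisons (edgeR quasi-likelihood test with Benjamini-Hochberg adjustment over 16637 genes, 137 col genes tested). The 1 kept gene left out by the low-count filter of the fit was col-35. For TDP-43 against wild type 1 gene of all those tested was called (0.00601%), and for TDP-43ΔNLS against wild type and for TDP-43ΔNLS against TDP-43 it was 0 (0%). The median log2 fold change of the col genes was 0.08 for TDP-43 against wild type, against 0.02 over all genes tested. It was 0.05 for TDP-43ΔNLS against wild type, against -0.01, and -0.15 for TDP-43ΔNLS against TDP-43, against -0.00. Both comparisons with wild type share its 4 libraries.

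At an unadjusted p under 0.05 there were 7 col genes for TDP-43 against wild type (5.11%, against 1.83% of all genes tested), all higher in TDP-43: col-2, col-37, col-45, col-50, col-51, col-85 and col-123. Of these, 6 belong to the set that peaks in TDP-43 replicate 3, and without that library 1 of the 7, col-51, remained. There were 3 for TDP-43ΔNLS against wild type (col-37, col-45 and col-51, 2.19%, against 1.45%), all higher in TDP-43ΔNLS. For TDP-43ΔNLS against TDP-43 there was 1 (col-103, 0.73%, against 2.57%), higher in TDP-43ΔNLS. Among the genes named, col-123 has exons that overlap those of catp-6, a gene with more counts, as given above. DESeq2's Wald test called 1 col gene, col-51, for TDP-43 against wild type (adjusted p = 0.0149, among 21 genes or 0.126% of all tested) and 0 in the other comparisons, where 16 genes (0.0962%) and 8 genes (0.0481%) were called.

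The gene col-51 on chromosome I had 35, 28, 276 and 1 counts in TDP-43 replicates 1 to 4, 5, 21, 20 and 67 counts in TDP-43ΔNLS replicates 1 to 4, and 3, 0, 0 and 0 counts in wild type replicates 1 to 4. Each TDP-43ΔNLS library was above every wild type library, whereas TDP-43 replicate 4 lay within the wild type range. The ratio of summed counts at equal depth was 106 for TDP-43 over wild type (95% interval 36 to 517) and 35.5 for TDP-43ΔNLS over wild type (11.8 to 175), where the intervals cover counting error only. The fitted log2 fold change for TDP-43 against wild type was 6.39 ± 1.68 (SE) with an edgeR adjusted p of 0.9999, and 4.53 without TDP-43 replicate 3, which held 276 of the counts. For TDP-43ΔNLS against wild type it was 4.93 ± 1.62.

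The gene col-37 (V:12166706-12167753) had 42, 54, 524 and 0 counts in TDP-43, 28, 16, 10 and 248 counts in TDP-43ΔNLS, and 8, 0, 0 and 0 counts in wild type, replicates 1 to 4 each. Again every TDP-43ΔNLS library was above every wild type library and TDP-43 replicate 4 was not. The ratio of summed counts at equal depth was 72.5 for TDP-43 over wild type (36.6 to 169) and 35.6 for TDP-43ΔNLS over wild type (17.8 to 83.1), counting error only. For col-45 on chromosome I the fitted log2 fold change was 2.85 ± 0.96 for TDP-43 against wild type, 1.93 without TDP-43 replicate 3, and 2.41 ± 0.95 for TDP-43ΔNLS against wild type. The transcripts of these 3 genes were at most 19.1 CPM in any library.

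Among the genes with many counts col-103 (IV:762413-763678) had the lowest p for TDP-43ΔNLS against TDP-43. It had 1483, 1731, 1693 and 1909 CPM in TDP-43ΔNLS replicates 1 to 4, against 992, 1592, 1192 and 756 CPM in TDP-43 replicates 1 to 4, so the groups overlapped in 1 pair of libraries. The log2 fold change was 0.59 ± 0.25, with an unadjusted p of 0.036 and an adjusted p of 0.998 (edgeR, Benjamini-Hochberg). For col-42 it was 0.51 ± 0.24 and for col-98 0.54 ± 0.26, neither under an unadjusted p of 0.05. The lower genes of this comparison with the lowest p were col-68 (-0.70 ± 0.44), col-145 (-0.99 ± 0.72) and col-155 (-0.61 ± 0.47), and the last 2 rested on TDP-43 replicate 4, without which they were 0.12 and 0.13.

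The lower genes with the lowest p for TDP-43 against wild type were weak. They were col-87 (-1.19 ± 0.55), col-152 (-0.72 ± 0.76) and col-74 (-1.04 ± 1.18), and col-74 was 0.17 without wild type replicate 1. Both col-87 and col-74 averaged under 1 CPM, and their exons overlap those of the genes with more counts, xrn-1 and gtap-1 on the other strand. For TDP-43ΔNLS against wild type they were col-152 (-1.31 ± 0.77), col-60 (-0.81 ± 0.78) and col-68 (-0.46 ± 0.44). None had an unadjusted p under 0.05.

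A term for the larva-like and adult-like sets, added to the strain fit, gave a common dispersion of 0.137, against 0.435 without it, and again 0 col genes past an adjusted p of 0.05 by edgeR in all 3 comparisons, where 0.0962%, 0.0541% and 0.00601% of all genes were called. At an unadjusted p under 0.05 there were 7 col genes for TDP-43 against wild type (5.11%, against 6.28% of all genes tested), 6 for TDP-43ΔNLS against wild type (4.38%, against 5.20%) and 4 for TDP-43ΔNLS against TDP-43 (2.92%, against 4.41%). The medians became -0.02, -0.26 and -0.41 in the same order. TDP-43ΔNLS had 2 larva-like libraries and the other strains 1 each, and the sign for whole classes depended on this term. For TDP-43ΔNLS against wild type, 40 of 43 genes of the larva-like class had a positive log2 fold change without the term (median 0.45) and 8 of 43 with it (median -0.35), while the adult-like class had 6 of 24 without it (median -0.09) and 24 of 24 with it (median 1.12). For TDP-43ΔNLS against TDP-43 the larva-like class had 30 of 43 positive without the term (median 0.22) and 5 of 43 with it (median -0.45), and the adult-like class had 12 of 24 (median 0.00) and 24 of 24 (median 1.16). Of all genes tested, 49.2% were positive without the term and 51.5% with it for TDP-43ΔNLS against wild type. For TDP-43ΔNLS against TDP-43 it was 49.5% and 48.7%. The same shares among all genes that divided the library sets were not computed. The change of sign is therefore not shown to be particular to col genes. TDP-43ΔNLS replicate 4 held more of the adult-like class than any other larva-like library, as described above. In the adult-like libraries alone, with 2 of TDP-43ΔNLS, 24 of 24 genes of this class were again positive. Their medians were 0.40 against wild type and 0.43 against TDP-43, where 50.8% and 49.2% of all genes tested were positive. The class was drawn from levels in these same libraries. For 13 of the 24 genes the highest adult-like library was TDP-43ΔNLS replicate 2. The 24 genes were measured in the same libraries and are not separate observations of the strain. None of these genes passed the test in any of the 3 fits, so no direction is given for the classes.

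**Figure D5:**
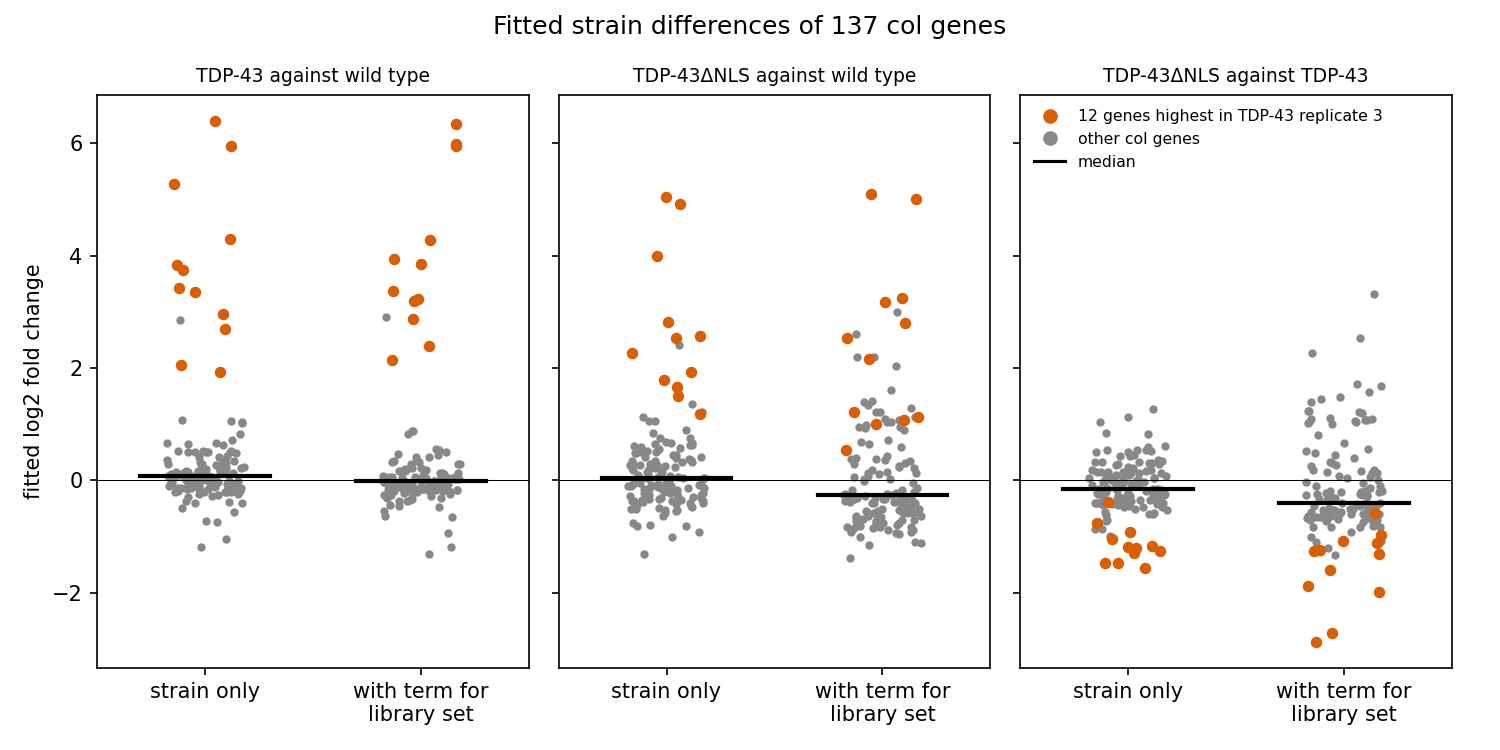
Fitted log2 fold change of 137 col genes in the 3 strain comparisons, without and with a term for the larva-like and adult-like sets, 1 point per gene; the orange points are the 12 genes highest in TDP-43 replicate 3 and the black lines are medians over all 137. The orange points are high in TDP-43 against wild type by the way they were chosen; the medians there are 0.08 and -0.02.

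In the adult-like libraries alone, with 3 TDP-43, 2 TDP-43ΔNLS and 3 wild type libraries, edgeR called 0 col genes in each comparison, where 0.0535%, 0.0357% and 0% of all genes were called, and 13, 5 and 21 of 136 col genes tested had an unadjusted p under 0.05 for TDP-43 against wild type, TDP-43ΔNLS against wild type and TDP-43ΔNLS against TDP-43, where 6.26%, 4.46% and 3.0% of all genes did. Overlap was examined for all 138 col genes, with col-35, which the main fit left out, and the background is over the 16637 genes tested. Without overlap, 10 of the 138 were higher in TDP-43 than in wild type (background 4.62% of all genes) and 1 lower (background 7.43%). For TDP-43ΔNLS against wild type 15 were higher (background 5.9%) and 2 lower (background 10.2%), among the higher ones col-19, col-119, col-124 and col-140. For TDP-43ΔNLS against TDP-43 10 were higher (background 9.41%) and 19 lower (background 9.7%). The higher ones included col-8, col-19, col-106, col-122 and col-181, and the lower ones col-2, col-37, col-40, col-41, col-51 and col-166. With groups of 2 and 3 libraries these counts are descriptions, and no gene among them passed the adjusted threshold by edgeR. They include col-51, which DESeq2's Wald test called over all libraries for TDP-43 against wild type, as given above.

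Of 22 listed genes that make, secrete or cross-link collagen, 12 (54.5%, against 22.3% of all genes tested) were higher in every larva-like library, 3 (13.6%, against 24.6%) were higher in every adult-like library and 7 overlapped. The prolyl hydroxylase gene dpy-18 had 296 CPM in TDP-43 replicate 4, 176 CPM in TDP-43ΔNLS replicate 3, 204 CPM in TDP-43ΔNLS replicate 4 and 239 CPM in wild type replicate 4, against 40.8 to 155 CPM (median 64.9) in the adult-like libraries. The gene phy-2, for a further prolyl hydroxylase, stood at 87.5 to 170 CPM in the larva-like libraries and at 26.5 to 82.2 CPM in the adult-like libraries. For the disulfide isomerase gene pdi-2 the ranges were 1069 to 1987 CPM and 362 to 919 CPM in the same order.

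Of the cross-linking genes bli-3, doxa-1 and tsp-15 were higher in every larva-like library and mlt-7 overlapped. The dual oxidase gene bli-3 stood at 70.5 to 86.9 CPM in the larva-like libraries and at 26.4 to 66.7 CPM in the adult-like libraries, and its partner doxa-1 at 33.0 to 37.6 CPM and 14.8 to 30.4 CPM. The peroxidase gene mlt-7 stood at 102 to 133 CPM in the larva-like libraries and at 39.95 to 115 CPM in the adult-like libraries. The astacin protease gene dpy-31 stood at 102 to 111 CPM in the larva-like libraries and at 41.4 to 78.7 CPM in the adult-like libraries. The convertase gene bli-4 overlapped, at 256 to 290 CPM in the larva-like libraries and 235 to 313 CPM in the adult-like libraries. The 3 genes of the list higher in the adult-like libraries were phy-3, cyn-9 and tmem-131.

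Of 17 listed regulators of cuticle genes, 14 (82.4%, against 22.3% of all genes tested) were higher in every larva-like library, 0 (against 24.6%) were higher in every adult-like library, and sma-9, lin-26 and nhr-23 overlapped. The gene lin-29, whose product activates adult collagen genes, had 109 CPM in TDP-43 replicate 4, 76.4 CPM in TDP-43ΔNLS replicate 3, 87.0 CPM in TDP-43ΔNLS replicate 4 and 84.0 CPM in wild type replicate 4, against 15.4 to 40.3 CPM (median 21.4) in the adult-like libraries. Its own transcript was thus higher in the libraries where col-19 and col-7 were low. The transcription factor gene blmp-1 stood at 81.7 to 100.2 CPM and at 8.53 to 29.8 CPM in the larva-like and the adult-like libraries. Of the 5 hypodermal marker genes, elt-3, nhr-25 and grh-1 were higher in every larva-like library, while lin-26 and nhr-23 overlapped. The level of lin-26 was 71.4 to 80.7 CPM in the larva-like and 71.1 to 105 CPM in the adult-like libraries, and that of nhr-23 was 45.1 to 54.3 CPM and 29.2 to 57.3 CPM in the same order. All 5 were detected in all 12 libraries.

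Neither list held a gene past an adjusted p of 0.05 in a strain comparison (edgeR, without or with the term for the library sets), and without the term 0 genes of either list had an unadjusted p under 0.05. With the term 1 of 22 enzyme genes and 1 of 17 regulators had one for TDP-43 against wild type, where 6.28% of all genes tested did. For TDP-43ΔNLS against wild type it was 1 enzyme gene and 0 regulators, against 5.20% of all genes. For TDP-43ΔNLS against TDP-43 it was 2 enzyme genes and 0 regulators, against 4.41% of all genes. The lowest p of both lists for TDP-43 against wild type was that of nhr-23, a receptor gene needed for molting. It had 46.8, 57.3, 41.7 and 51.3 CPM in TDP-43 replicates 1 to 4, against 31.6, 29.2, 31.1 and 46.8 CPM in wild type replicates 1 to 4, with a log2 fold change of 0.51 ± 0.25. The others named by the rule for this comparison were sma-9 (-0.42 ± 0.37), tsp-15 (-0.56 ± 0.53) and fkb-5 (0.82 ± 0.84). For TDP-43ΔNLS against wild type they were elt-3 (0.57 ± 0.33), nhr-23 (0.32 ± 0.25), dpy-31 (0.35 ± 0.33) and sec-23 (-0.16 ± 0.17), and for TDP-43ΔNLS against TDP-43 hbl-1 (1.07 ± 0.78), sma-9 (0.49 ± 0.37), sec-23 (-0.31 ± 0.17) and let-268 (-0.39 ± 0.36).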

How the data were processed

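Raw counts of reads in each gene, not normalized, were deposited by the authors as 1 table for 12 libraries. Per the submitters' processing notes, STAR, featureCounts 2.20.0, R 4.4.2 and the build WBcel235 were used. Whether reads were counted by strand, and what was done with reads that match several genes, is not given in the sources used here, so counts of similar, overlapping or antisense col genes are uncertain: the exons of 31 kept col genes overlap those of another protein coding gene. All 46926 identifiers were found in the Ensembl annotation of this build, which gave names, coordinates and exon lengths.

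Counts were scaled with TMM and tested with edgeR 4.0.16 in R 4.3.3 (filterByExpr with minimum count 10, which left 16637 genes holding 99.9% of counts; robust quasi-likelihood fit over all 12 libraries, no covariate, Benjamini-Hochberg adjustment, threshold 0.05). DESeq2 1.42.0, other scalings and filters, a term for the library sets, the replicate number as a block and leaving out each library were alternatives. CPM are counts per TMM-scaled library size, and differences of medians use log2(CPM + 0.5). Sequences were not analysed here. Same-numbered TDP-43 and wild type libraries gave correlations of deviations from the strain means of 0.23, 0.61, 0.59 and 0.86 for replicates 1 to 4. Libraries of different numbers were not compared, and replicate 4 was larva-like in every strain. These values therefore cannot show whether the numbers pair the libraries, and the labels do not say so. For TDP-43ΔNLS replicates 1, 2 and 4 the correlations were 0.30, 0.75 and 0.79 with wild type and 0.42, 0.83 and 0.75 with TDP-43. Replicate 3, which was larva-like in TDP-43ΔNLS only, gave -0.72 and -0.66. Not every pair passed 0.1, and the numbers were not taken as pairing that strain.

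On simulated counts of 16637 genes for TDP-43 against wild type, the fit at the designed spread recovered 0% of genes changed by 1 and 8.67% of genes changed by 2 on the log2 scale, and at the spread with the term for the library sets 35.7% and 89.3%. The simulated means held no difference between the library sets, and the fit held no term for them. Changed genes were drawn only above a minimum mean level. The rates therefore do not give the power of the fit with the term, or that for the weakest col genes. The col genes, the lists and the rule for naming genes were chosen with earlier results of these data known. The rule took the 8 widest differences between library sets in each direction (median at least 50 CPM in the higher set), the 8 highest per kilobase, the 3 lowest p in each direction and comparison, col-2, col-7, col-17, col-19, col-40 and col-99, the 2 lowest p of each list, and the genes at the count limit. Other col genes were named after their values were seen.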

Additional observations from a re-analysis of the deposited data

Results flagged for a closer look

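Of 129 sets of 4 libraries examined (the CPM of a named col gene, or the level of the oocyte list, in 1 strain), 28 had 1 library farther from the others than Dixon's 95% limit for 4 values. The limit flags about 1 in 20 by chance, but that rate does not apply here. Many of the genes were named for wide differences between the library sets or for a low p in these data, and the oocyte list defined the sets. The flags are therefore a description. TDP-43 replicate 4, a larva-like library, was the highest of its strain for col-10 (2004 CPM), col-155 (804 CPM), col-166 (1956 CPM), col-169 (799 CPM), col-17 (1580 CPM), col-41 (673 CPM), col-54 (162 CPM), col-90 (954 CPM) and col-99 (52.7 CPM), and the lowest on the oocyte list (4.2 log2 CPM). Wild type replicate 4, the larva-like library of its strain, was the highest for col-169 (609 CPM), col-176 (661 CPM), col-41 (469 CPM) and col-54 (94.8 CPM).

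TDP-43 replicate 3 was the highest of its strain for col-2 (32.8 CPM), col-35 (2.33 CPM), col-37 (19.1 CPM), col-40 (30.5 CPM) and col-51 (10.1 CPM). TDP-43ΔNLS replicate 4 was the highest of its strain for col-2 (12.3 CPM), col-35 (0.97 CPM), col-37 (10.1 CPM), col-40 (13.8 CPM) and col-50 (6.17 CPM). Wild type replicate 1 was the only wild type library with counts of col-37 (0.36 CPM) and col-51 (0.13 CPM) and was the lowest of its strain for col-87 (0.54 CPM). TDP-43ΔNLS replicate 2 was the highest of its strain for col-74 (1.27 CPM).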

How the results depend on the processing

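Of 892 values recomputed under other settings, 887 kept their direction and their side of the threshold or stayed within the spread. Even so, the signs of whole classes changed with the term for the library sets. For TDP-43ΔNLS against wild type the larva-like class went from 40 of 43 genes positive to 8 of 43. The adult-like class went from 6 of 24 to 24 of 24. Of all genes tested, 49.2% were positive without the term and 51.5% with it. DESeq2's Wald test called 1 col gene for TDP-43 against wild type, col-51 (log2 fold change 6.68, adjusted p 0.0149), whose adjusted p by edgeR was above 0.18 under every other setting tried for this comparison. The log2 fold change of col-74 for TDP-43 against wild type ran from -1.53 to 0.17 as each library was left out, turning positive without wild type replicate 1. Those of col-145 (-1.31 to 0.12) and col-155 (-0.85 to 0.13) for TDP-43ΔNLS against TDP-43 turned positive without TDP-43 replicate 4. Leaving out each library in turn gave 0 col genes past the threshold in every comparison, and medians of -0.35 to 0.31 for TDP-43 against wild type, 0.01 to 0.21 for TDP-43ΔNLS against wild type and -0.30 to 0.13 for TDP-43ΔNLS against TDP-43. Over all settings the medians ran from -0.35 to 0.44, from -0.45 to 0.27 and from -0.59 to 0.13 in the same order. The genes without overlap between library sets numbered 39 to 50 over all settings (higher in larva-like, 39 with a filter of 10 CPM in 4 libraries, 43 to 50 as each library was left out, 50 without wild type replicate 1) and 24 to 29 (higher in adult-like, 29 without TDP-43ΔNLS replicate 4). Leaving out a library makes the condition of no overlap easier to meet, so it could hardly lower these numbers. The lower ends of 43 and 24 are therefore no sign of stability. With the replicate number as a block, 0 col genes passed in each comparison, with medians of 0.01, 0.27 and 0.12 over the 12 libraries, and a block fit of TDP-43 and wild type alone, added after seeing the data, called 22 genes in all and 0 col genes. The block changed no call among the col genes. Weak genes such as col-51 rest on few counts, and the sequencing depth cannot show small changes in them. The term for the library sets and the fits of the adult-like libraries alone rest on sets drawn from the expression data.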
